A study of Mus musculus with 12 samples.

Results

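The genes described here encode the substrate, the peptidases and the receptors of the renin-angiotensin system that were listed for mouse kidney: Agt, Ace, Anpep, Enpep, Mme, Ctsa, Agtr1a, Mas1 and Atp6ap2. They were taken by name from the deposited value table, each through its probe set with 1 gene symbol and the highest mean, and all 9 were measured, each by 1 probe set, among 19938 genes. The samples were kidneys of female mice, profiled on 12 Affymetrix whole-transcript arrays in 3 groups of 4. WT vehicle mice (strain label C57BL/6) received 100 µl of saline and WT FGF23 mice (C57BL/6) received 500 ng of recombinant FGF23 per g of body weight, both by injection into the peritoneum. KL null vehicle mice, which lack klotho, the co-receptor of FGF23, carry the strain label 129/SvEv/C57BL/6 and received saline. All were killed 1 h after injection, after 5 to 8 weeks on standard diet. The protocol describes wild-type littermates, but by the strain labels genotype and strain cannot be told apart. Nothing in the labels ties a replicate to its own mouse, so every p-value rests on variation among these 12 samples, which may be technical.

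Angiotensinogen is cut by renin to angiotensin I, and angiotensin-converting enzyme trims that peptide to angiotensin II, which acts through the AT1 receptor to constrict vessels and retain sodium. In the kidney, several of the enzymes that make or break these peptides sit on the brush border of the proximal tubule, where the tubule can form and degrade angiotensins locally. Aminopeptidases shorten angiotensin II and III from the amino end, while neprilysin and carboxypeptidases form the shorter peptides that act through the Mas receptor or are inactive.

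Values are log2 RMA signals, so a difference of 1 is a doubling. A level is compared only with the same gene's level in other arrays, except where the changes of the membrane peptidases are set against each other. A gene was called where limma's adjusted p was below 0.05 (Benjamini-Hochberg over all 19938 genes). Across the arrays the medians of all probe sets ran from 6.15 to 6.29, and their standard deviations from 2.17 to 2.28, lowest in WT FGF23 replicates 1 and 2. Kl itself was at 10.67, 10.45, 10.74 and 10.58 in WT vehicle, at 10.45, 10.54, 10.61 and 10.44 in WT FGF23, and at 9.66, 9.76, 9.66 and 9.80 in KL null. The KL null arrays thus all lay below the others (log2 difference from WT vehicle -0.89, SE 0.0831, limma adjusted p = 1.75e-05), although signal remained. Whether its probes lie in the deleted part was not tested.

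In KL null kidneys Ace and Anpep, 2 of the 9 genes, were lower than in WT vehicle, and none was higher by the test. Of all genes tested, 8.01% were called in this comparison and 4.44% were called lower. The KL null arrays of Ace and Anpep lay wholly below the WT vehicle arrays, as did those of 7.44% of all genes. Agt was higher on average without passing, and the other 6 genes differed by at most 0.23 on the log2 scale. The median difference of the 9 was -0.14, against 0.02 over all genes, and 8 of the 9 differences were negative. After FGF23 none of the 9 was called by limma, where 0.0853% of all genes were, and 1 of the 9, Atp6ap2, had a p below 0.05 before adjustment, as did 15.4% of all genes. Atp6ap2 was also the 1 gene of the 9 whose FGF23 arrays all lay below the vehicle arrays, as did those of 2.92% of all genes.

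**Figure D1:**
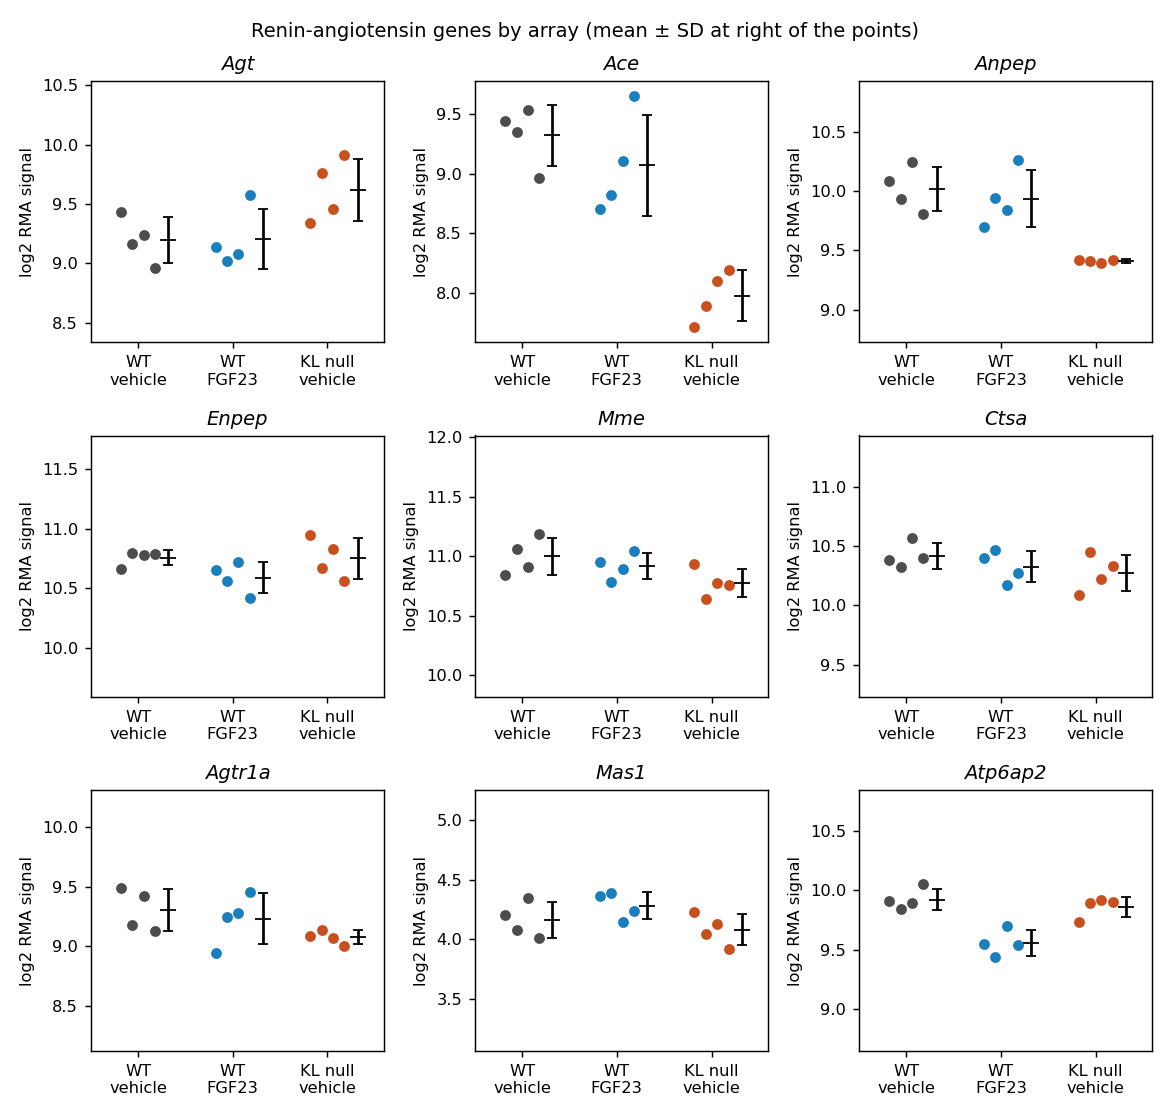
Log2 RMA signal (vertical axis, each panel spanning the same number of log2 units around its own values) of the 9 genes in each of the 12 arrays, as points by group, with the mean and SD of 4 arrays beside them. Ace and Anpep in KL null lie below every wild-type array, at 7.71 to 8.19 and 9.39 to 9.42, and Atp6ap2 after FGF23 lies at 9.44 to 9.70, below the arrays of both other groups.

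Agt encodes angiotensinogen, the substrate of renin. Its signal was 9.43, 9.16, 9.24 and 8.96 in WT vehicle, 9.14, 9.02, 9.08 and 9.58 in WT FGF23, and 9.34, 9.76, 9.46 and 9.91 in KL null. KL null arrays were the highest on average, but the lowest of them fell below WT vehicle replicate 1 and below WT FGF23 replicate 4, so the groups overlapped. The difference from WT vehicle was 0.42 (95% interval 0.11 to 0.73, SE 0.146) with a limma adjusted p of 0.0962, and it did not pass. It passed without KL null replicate 1 (0.51, adjusted p = 0.0486), and with all 12 arrays under further quantile normalization or with array spread as a covariate. KL null against WT FGF23 gave 0.41 (adjusted p = 0.0812), which passed without WT FGF23 replicate 4 (0.54, adjusted p = 0.0297) and without KL null replicate 1 (0.51, adjusted p = 0.0382). After FGF23, Agt stood at 9.21 ± 0.26 (SD, n = 4) against 9.20 ± 0.20 (SD, n = 4), a difference of 0.01 (adjusted p = 0.984).

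Ace encodes angiotensin-converting enzyme, the peptidyl-dipeptidase that forms angiotensin II and also degrades bradykinin. Its signal was 9.44, 9.35, 9.54 and 8.96 in WT vehicle, 8.70, 8.82, 9.11 and 9.65 in WT FGF23, and 7.71, 7.89, 8.10 and 8.19 in KL null. Each KL null array lay below each of the 8 wild-type arrays, while the wild-type groups overlapped. The KL null mean of 7.97 ± 0.21 (SD, n = 4) was 2.55-fold lower than the WT vehicle mean of 9.32 ± 0.25 (SD, n = 4), a log2 difference of -1.35 (SE 0.182, 95% interval -1.74 to -0.96, limma adjusted p = 0.00047). Against WT FGF23 the signal was 2.14-fold lower (-1.10, SE 0.182, adjusted p = 0.00182). The call held in both comparisons under all 24 alternatives run, with differences from WT vehicle between -1.47 and -1.22. After FGF23 the difference was -0.25 (adjusted p = 0.494), with the value of replicate 4 above every vehicle array. That difference was -0.13 without WT FGF23 replicate 1, -0.45 without replicate 4 (adjusted p = 0.22) and 0.06 without replicates 1 and 2, and it passed under none of the 24 alternatives.

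Anpep encodes aminopeptidase N, a brush border enzyme that shortens angiotensin III. Its signal was 10.08, 9.93, 10.24 and 9.81 in WT vehicle, 9.70, 9.94, 9.84 and 10.26 in WT FGF23, and 9.42, 9.41, 9.39 and 9.42 in KL null. The KL null arrays lay within 0.03 of each other and below every wild-type array. The mean fell from 10.02 ± 0.19 (SD, n = 4) in WT vehicle to 9.41 ± 0.01 (SD, n = 4), which is 1.52-fold lower (-0.60, SE 0.116, 95% interval -0.85 to -0.36, limma adjusted p = 0.00497). Against WT FGF23 it was 1.44-fold lower (-0.53, adjusted p = 0.00939), and both calls held under all 24 alternatives. FGF23 against vehicle gave -0.08 (adjusted p = 0.741).

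Enpep encodes aminopeptidase A, which converts angiotensin II to angiotensin III. Its signal was 10.66, 10.80, 10.78 and 10.79 in WT vehicle, 10.65, 10.56, 10.72 and 10.42 in WT FGF23, and 10.95, 10.67, 10.83 and 10.56 in KL null. The groups overlapped, and the KL null mean was within 0.01 of the WT vehicle mean (interval of the difference -0.21 to 0.20, adjusted p = 0.986). The sign of that small difference turned under 6 of the 24 alternatives. After FGF23 the difference was -0.17 (adjusted p = 0.395).

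Mme encodes neprilysin, an endopeptidase that forms angiotensin-(1-7) from angiotensin I. Its signal was 10.84, 11.06, 10.91 and 11.19 in WT vehicle, 10.95, 10.78, 10.89 and 11.04 in WT FGF23, and 10.93, 10.64, 10.77 and 10.76 in KL null. KL null replicate 1 lay above 2 vehicle arrays, so these groups overlapped as well. The difference from WT vehicle was -0.23 (interval -0.43 to -0.02, adjusted p = 0.186), and after FGF23 it was -0.08 (adjusted p = 0.668).

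The changes of the 4 membrane peptidases between KL null and WT vehicle were then set against each other. Whether their probe sets respond alike to the same change in transcript was not tested, so these are differences of signal. For each of the 6 pairs, the difference between both genes was taken within each array and compared between KL null and WT vehicle by a two-sided exact permutation test over the 70 splits, a test chosen after the values were seen, with the p-values adjusted over the 6 pairs. The change of Ace minus that of Anpep was -0.74 (SE 0.125), minus that of Enpep -1.34 (SE 0.228) and minus that of Mme -1.12 (SE 0.246), and Anpep minus Enpep gave -0.60 (SE 0.139). These 4 values each had an exact p of 0.0286, the smallest the design allows, and an adjusted p of 0.0429. That adjusted value can be reached only while at least 4 of the 6 pairs, which share genes, stand at the smallest p, so it is not evidence for any 1 pair by itself. Anpep minus Mme was -0.38 (exact p = 0.114, adjusted 0.114) and Enpep minus Mme 0.22 (exact p = 0.0857, adjusted 0.103). With single arrays left out, the sizes ran from -0.81 to -0.65, -1.48 to -1.19, -1.31 to -0.99, -0.68 to -0.53, -0.51 to -0.28 and 0.17 to 0.28 in the order given. The adjusted exact p of the first 4 rose to between 0.0572 and 0.0857 without KL null replicate 1, 2 or 3. Without KL null replicate 4 it was 0.0685 for Ace minus Mme and 0.0429 for Enpep minus Mme, and without WT vehicle replicate 4 it was 0.0343 for Anpep minus Mme.

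**Figure D2:**
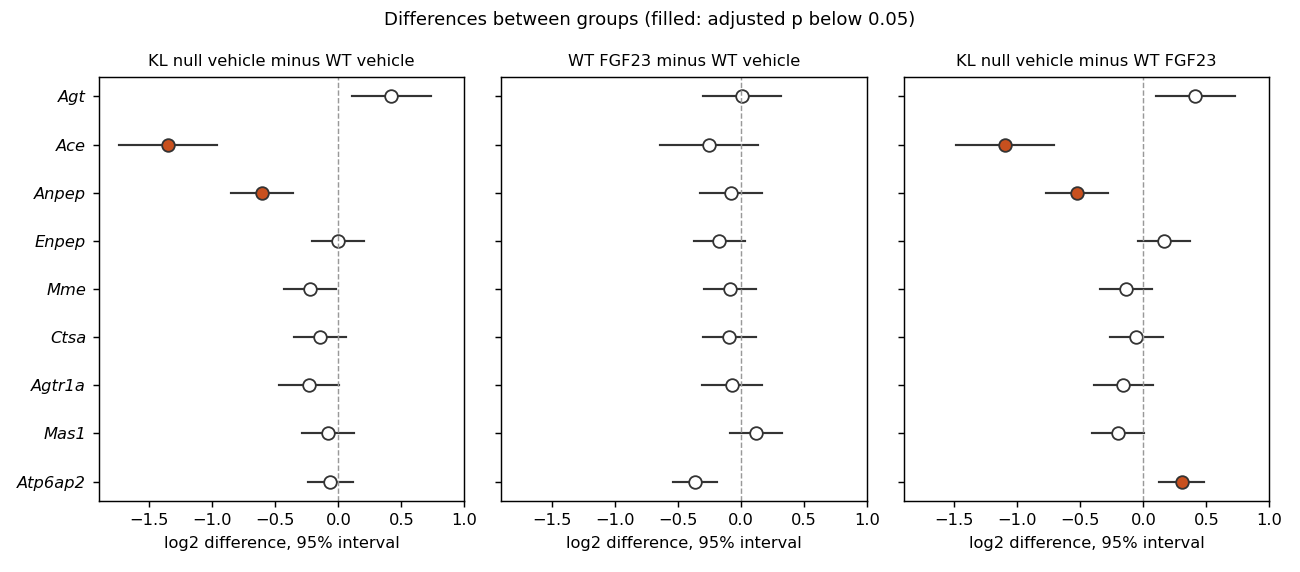
Log2 difference (horizontal axis, bars are 95% intervals) of each of the 9 genes in the 3 comparisons, filled where limma's adjusted p was below 0.05. Ace and Anpep stand to the left in both comparisons of KL null, and the middle panel, FGF23 against vehicle, has no filled point.

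The promoters of Ace and Anpep, which fell together, and of Enpep, whose difference lay within 0.01 of 0, are shown for comparison. Each sequence is the 250 bases before an annotated RefSeq start site in GRCm38.p6, read 5′ to 3′ on the gene's strand: Ace at chr11:105967698-105967947 (plus strand, the upstream one of its pair of windows), Anpep at chr7:79848211-79848460 (minus strand) and Enpep at chr3:129332750-129332999 (minus strand). Capitals mark matches, on either strand, to GGGCGG (the GC box), TATAA (the TATA type), CCAAT (the box of that name), AGGTCA (a nuclear receptor element) and CACGTG (an E-box).
Ace: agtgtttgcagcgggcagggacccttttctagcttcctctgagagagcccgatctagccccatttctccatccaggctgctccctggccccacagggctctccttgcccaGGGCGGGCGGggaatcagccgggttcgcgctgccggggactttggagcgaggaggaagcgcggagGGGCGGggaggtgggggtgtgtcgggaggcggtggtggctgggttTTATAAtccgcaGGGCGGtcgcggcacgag
Anpep: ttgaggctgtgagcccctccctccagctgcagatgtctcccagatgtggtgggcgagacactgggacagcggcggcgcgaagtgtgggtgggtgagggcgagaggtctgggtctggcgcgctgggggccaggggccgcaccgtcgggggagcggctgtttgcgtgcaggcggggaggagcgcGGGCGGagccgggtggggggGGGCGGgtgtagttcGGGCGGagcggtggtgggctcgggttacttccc
Enpep: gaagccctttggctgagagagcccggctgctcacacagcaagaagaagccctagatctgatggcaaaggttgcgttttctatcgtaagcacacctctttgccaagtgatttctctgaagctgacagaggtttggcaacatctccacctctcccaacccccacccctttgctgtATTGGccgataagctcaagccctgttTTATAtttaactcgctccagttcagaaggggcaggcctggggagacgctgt
The Ace window holds 4 GC boxes, an overlapping pair that begins 140 and 136 bases before the start site and others at 75 and 18 bases, with 1 TATA-type stretch (TTATAA, matched on both strands) from 30 bases before it. The other Ace window, further downstream, holds no GC box, a CCAAT match 25 bases and an AGGTCA match 50 bases before its start site, and which window serves the kidney was not tested. The Anpep window holds 3 GC boxes, which begin 68, 48 and 33 bases before the start site, and no match to the other motifs. The Enpep window holds no GC box, a CCAAT match (ATTGG on this strand) 77 bases before the start and a TATA-type match 51 bases before it. Its GC content was 52.4%, the median over all windows, against 67.2% for Ace and 72.8% for Anpep. GGGCGG occurs in 32.7% of all 32851 such windows, TATAA in 22.8%, CCAAT in 33.8%, AGGTCA in 14.0% and CACGTG in 6.02%. Among the members, 6 of the 12 windows, which belong to 8 of the 9 genes, hold a GC box, including windows of Mme and Atp6ap2, which were not called between KL null and WT vehicle.

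Ctsa encodes cathepsin A, a lysosomal carboxypeptidase that can cut angiotensin I and shields neuraminidase and beta-galactosidase in a complex. Its signal was 10.38, 10.32, 10.57 and 10.40 in WT vehicle, 10.40, 10.47, 10.17 and 10.27 in WT FGF23, and 10.09, 10.45, 10.22 and 10.33 in KL null. The ranges of the 3 groups overlapped, and the differences from WT vehicle were -0.14 in KL null (interval -0.35 to 0.06, adjusted p = 0.447) and -0.09 after FGF23 (adjusted p = 0.654).

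Agtr1a encodes the type 1a receptor, through which angiotensin II acts in the mouse kidney. Its signal was 9.49, 9.18, 9.42 and 9.13 in WT vehicle, 8.94, 9.25, 9.28 and 9.46 in WT FGF23, and 9.09, 9.14, 9.07 and 9.0 in KL null. All but 1 of the KL null arrays lay below every vehicle array, and they spanned less (SD 0.06) than either wild-type group (SD 0.18 and 0.22). The difference from WT vehicle was -0.23 and did not pass (adjusted p = 0.25). FGF23 against vehicle gave -0.07 (adjusted p = 0.757).

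Mas1 encodes the Mas receptor for angiotensin-(1-7). Its signal was low on the array, in the 14.9th percentile of gene means, at 4.01 to 4.35 in WT vehicle, 4.14 to 4.39 in WT FGF23 and 3.92 to 4.23 in KL null. Such dim values can hide a change, and none of the 3 comparisons passed (adjusted p from 0.194 to 0.72).

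Atp6ap2 encodes the (pro)renin receptor, which binds renin and its precursor and is also an accessory subunit of the vacuolar proton pump. Its signal was 9.91, 9.84, 9.89 and 10.05 in WT vehicle, 9.55, 9.44, 9.70 and 9.54 in WT FGF23, and 9.73, 9.89, 9.92 and 9.90 in KL null. Every FGF23 array lay below every array of both other groups. FGF23 against vehicle was 1.29-fold lower (-0.36, SE 0.0831, interval -0.54 to -0.19), with a limma p of 0.000527 before adjustment and 0.189 after it, so it was not called. Of all genes, 2.92% had FGF23 arrays wholly below the vehicle arrays. No alternative called it (adjusted p 0.0846 to 0.996). The difference was -0.27 with the spread of each array as a covariate and -0.30 without replicates 1 and 2, the FGF23 arrays of lowest spread. The part of array spread in this difference was not tested further. KL null differed from WT vehicle by -0.06 (interval -0.24 to 0.12, adjusted p = 0.748).

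KL null against WT FGF23 uses the same KL null arrays as the first comparison, so both share them. In it 2 of the 9 genes were lower (Ace and Anpep) and 1 higher, where 12% of all genes were called, 6.72% as higher and 5.25% as lower. The groups did not overlap for any of these 3, where 8.15% of all genes lay wholly lower and 7.95% wholly higher, and the median was -0.14 against -0.05 over all genes. The gene that was higher was Atp6ap2, by 1.23-fold (0.30, SE 0.0831, interval 0.12 to 0.48, limma adjusted p = 0.0283). That call ended without WT FGF23 replicate 1, 2 or 4 (0.30, 0.26 and 0.30) and without KL null replicate 2, 3 or 4 (0.29, 0.28 and 0.29), with adjusted p up to 0.0911. The others had adjusted p from 0.0812 (Agt) to 0.747 (Ctsa).

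The genes differed in how far their arrays scattered within groups. Ace had a within-group SD of 0.31, higher than 97% of all genes, and Agt 0.24, higher than 89.5%, whereas Atp6ap2 had 0.095, in the 12.8th percentile. Deviations from the group means were correlated for the 36 pairs of members, as a description over 12 arrays that share RNA, array and normalization. Of these r values 16 were above 0 and 20 below, and the pairs named here were picked for their large r. Anpep went with Agtr1a (Pearson r 0.86, permutation p = 0.0255, Spearman rho 0.78, permutation p = 0.0366) and with Ace (r 0.81, permutation p = 0.0104, rho 0.70, permutation p = 0.0294). Ace went with Agt (r 0.76, permutation p = 0.0133, rho 0.70, permutation p = 0.0277), although their KL null means lay on opposite sides of the wild-type means. Agt and Enpep ran opposite to each other (r -0.87, permutation p = 0.00222, rho -0.78, permutation p = 0.0173). None of the 36 pairs passed adjustment (adjusted permutation p of these pairs, in order, 0.229, 0.16, 0.16 and 0.0799). In each pair the 2 arrays farthest from the median in 1 of its genes (Agtr1a, Ace, Ace and Agt) were then left out. Without them r was 0.73, 0.56, 0.69 and -0.75. For the array spread named next, the 2 arrays farthest in that spread were left out. The deviations of Ace also ran with the array's spread of all signals (r 0.72, permutation p = 0.0269, rho 0.76, permutation p = 0.0149, without 2 arrays 0.60), as did those of Atp6ap2 (r 0.64, permutation p = 0.047, rho 0.64, permutation p = 0.0575, without 2 arrays 0.59), both with an adjusted p of 0.211 over 9 tests.

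**Figure D3:**
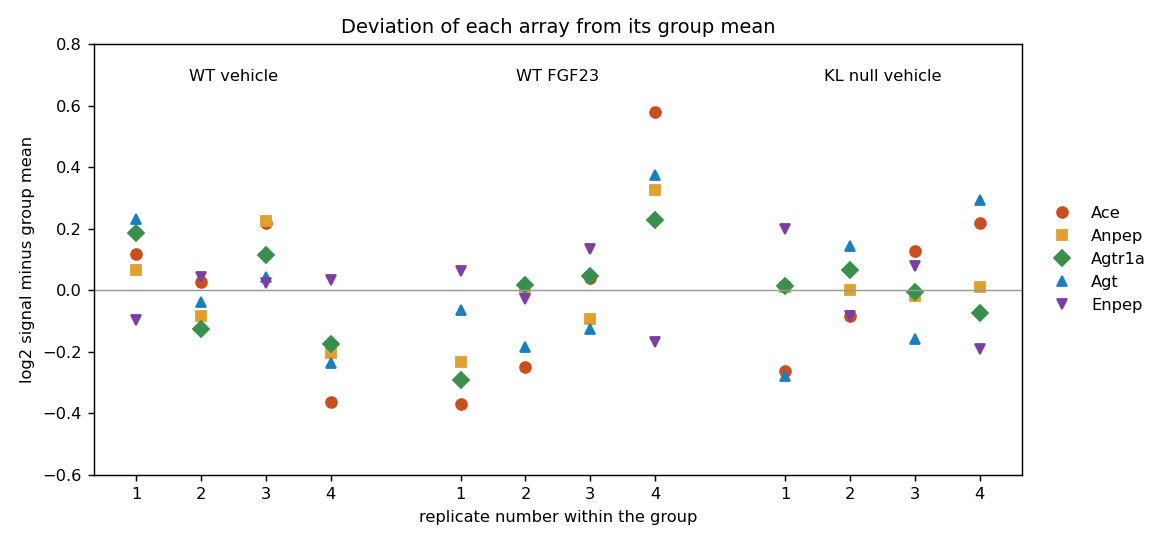
Deviation of each array from its group mean (vertical axis, log2 signal) for Ace, Anpep, Agtr1a, Agt and Enpep, by replicate number within the 3 groups. In WT FGF23 replicate 4 Ace, Agt, Anpep and Agtr1a are all above their group mean and Enpep is below it, and in WT vehicle replicate 4 the first 4 are all below.

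Genes were also ranked by likeness to Ace and Anpep over the 12 arrays. Predicted genes, RIKEN clones, microRNAs, snoRNAs, olfactory and vomeronasal receptors, immunoglobulin genes and unnamed loci were left out. Most like Ace was Steap3, a ferrireductase (Pearson r 0.99, and 0.95 after group means were removed). Bdh1, a ketone body dehydrogenase (0.98 and 0.90), and Snx3, a sorting nexin (0.97 and 0.84), followed. The log2 differences of Steap3, Bdh1 and Snx3 between KL null and WT vehicle were -1.005, -1.05 and -0.54. Those most like Anpep were Sod3, the extracellular superoxide dismutase (0.98 and 0.93), Steap3 (0.97 and 0.89) and Fndc3a (0.97 and 0.88). By Spearman's rho, 1 of 3 names was kept for Ace and 0 of 3 for Anpep.

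A further 11 genes of the system were analysed. In KL null 2 of the 11 were lower, 0 higher, and their median was -0.01. Of all genes, 4.44% were called lower in this comparison with WT vehicle and 3.58% higher. Rnpep, aminopeptidase B, fell 1.59-fold, from 8.06 ± 0.21 (SD, n = 4) in WT vehicle to 7.38 ± 0.09 (SD, n = 4) (-0.67, SE 0.116, limma adjusted p = 0.00268), and it was also lower than in WT FGF23 (-0.54, adjusted p = 0.00849). Agtrap, which binds the AT1 receptor and promotes its removal from the membrane, fell 1.36-fold (-0.45, SE 0.115, adjusted p = 0.0274). Agtrap lost its call without WT vehicle replicate 1 or 3 (-0.35 and -0.40) or KL null replicate 2, 3 or 4 (-0.44, -0.44 and -0.41), whereas Rnpep kept it in all 24 alternatives. After FGF23 none of the 11 passed. The smallest p belonged to Prcp, a carboxypeptidase that cuts angiotensin II (-0.49, adjusted p = 0.283), and Agtr2, the type 2 receptor (0.22, adjusted p = 0.344).

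The 10 brush border hydrolases outside the system were compared next, since Ace, Anpep, Enpep and Mme share that membrane. In KL null 3 of the 10 were lower than in WT vehicle, 1 was higher, and the median was -0.32. Of all genes, 4.44% were lower and 3.58% higher. Mep1b, the beta subunit of meprin, fell 1.62-fold (-0.70, limma adjusted p = 0.0192). Dpep1, a dipeptidase, fell 1.49-fold (-0.58, adjusted p = 0.015), and Naaladl1, an aminopeptidase, fell 1.48-fold (-0.56, adjusted p = 0.0143) at a signal as dim as that of Mas1 (4.55 in WT vehicle, 3.98 in KL null), which was not tested against background. Folh1, glutamate carboxypeptidase II, rose 1.31-fold (0.39, adjusted p = 0.0465). All 3 falls lost their call without WT vehicle replicate 3 (-0.63, -0.51 and -0.52), and Dpep1 and Naaladl1 also without WT vehicle replicate 1 (-0.50 and -0.54), and Dpep1 without KL null replicate 3 (-0.52). The rise of Folh1 kept its call in 11 of 24 alternatives (0.34 to 0.50 over all of them) and lost it without WT FGF23 replicate 2 or 3, WT vehicle replicate 1, 2 or 3, or KL null replicate 2, 3 or 4. Against WT FGF23, Mep1b (-0.59) and Naaladl1 (-0.49) were lower, and Folh1 (0.50) and Xpnpep2, aminopeptidase P (0.67, adjusted p = 0.0157), were higher. Of all genes, 5.25% were lower in that comparison and 6.72% higher. There the call of Folh1 held in all 24 alternatives. The call of Mep1b ended without WT FGF23 replicate 3 or 4 or KL null replicate 2, 3 or 4, that of Naaladl1 without WT FGF23 replicate 1 or 2 or KL null replicate 2, 3 or 4, and that of Xpnpep2 without WT FGF23 replicate 4, with differences over all alternatives of -0.83 to -0.42, -0.56 to -0.29 and 0.53 to 0.998. After FGF23 all 10 differences were negative and none passed, with Cltrn at -0.22 (adjusted p = 0.332) and Alpl at -0.17 (adjusted p = 0.41). This sign was not particular to the list. All 7 early proximal tubule markers and 15 of 17 V-ATPase subunits were negative too, while 7 of the 11 further genes of the system were positive. The median over all genes was 0.04, and the part of array spread in these signs was not tested.

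The lysosomal genes listed with cathepsin A and the V-ATPase subunits listed with Atp6ap2 gave few calls between KL null and WT vehicle. In that comparison 4.44% of all genes were lower and 3.58% higher. Of 13 lysosomal genes, 1 was higher in KL null, Galns, a sulfatase (0.34, adjusted p = 0.0193), which lost its call without WT vehicle replicate 1 (0.32) or KL null replicate 2 (0.31), and the median was -0.18. Galns was higher than in WT FGF23 too (0.49, adjusted p = 0.00183). Of the 13 differences between KL null and WT vehicle, 3 were positive and 10 negative. Beta-galactosidase (Glb1), of the cathepsin A complex, differed by -0.675 (interval -1.10 to -0.25, limma adjusted p = 0.0521). Neuraminidase (Neu1) differed by -0.275 (adjusted p = 0.101), and neither passed. After FGF23 all 13 differences were negative with a median of -0.12 and none passed. The brush border hydrolases shared this sign, and the part of array spread in it was not tested. Of 17 V-ATPase subunits, 2 were lower in KL null, Atp6v0a2 (-0.42, adjusted p = 0.0132) and Atp6v0b (-0.38, adjusted p = 0.023), with a median of -0.14. Without WT vehicle replicate 1 or 3 or KL null replicate 3 neither passed (-0.38, -0.37 and -0.38 for Atp6v0a2, -0.37, -0.37 and -0.30 for Atp6v0b), Atp6v0b did not without WT vehicle replicate 4 (-0.36), and the mean over the probe sets of Atp6v0a2 gave -0.24 (adjusted p = 0.09). After FGF23 none of the 17 passed, the median was -0.07, and the smallest p belonged to Atp6v0d2 (-0.27, adjusted p = 0.283) and Atp6v1c1 (-0.22, adjusted p = 0.286). Of all genes, 5.25% were lower in KL null against WT FGF23 and 6.72% higher. In that comparison Atp6v0a2, Atp6v0b and Atp6v0d1 were lower in KL null (-0.35, -0.33 and -0.39) and Atp6v0a4 and Atp6v0d2 higher (0.35 and 0.45). Each of these 5 calls ended without WT FGF23 replicate 2 or 4, or both, and without KL null replicate 3 (in the same order -0.31, -0.25, -0.35, 0.34 and 0.43). None of the 7 genes of the mineralocorticoid pathway, which acts downstream of aldosterone, passed in any comparison with all 12 arrays. Tsc22d3 (0.54, adjusted p = 0.347, and past the threshold at 0.87 with adjusted p = 0.0415 without KL null replicate 1) and Hsd11b2 (-0.14, adjusted p = 0.469) were nearest in KL null, and Scnn1g (-0.22, adjusted p = 0.307) and Scnn1b (-0.23, adjusted p = 0.342) after FGF23.

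**Figure D4:**
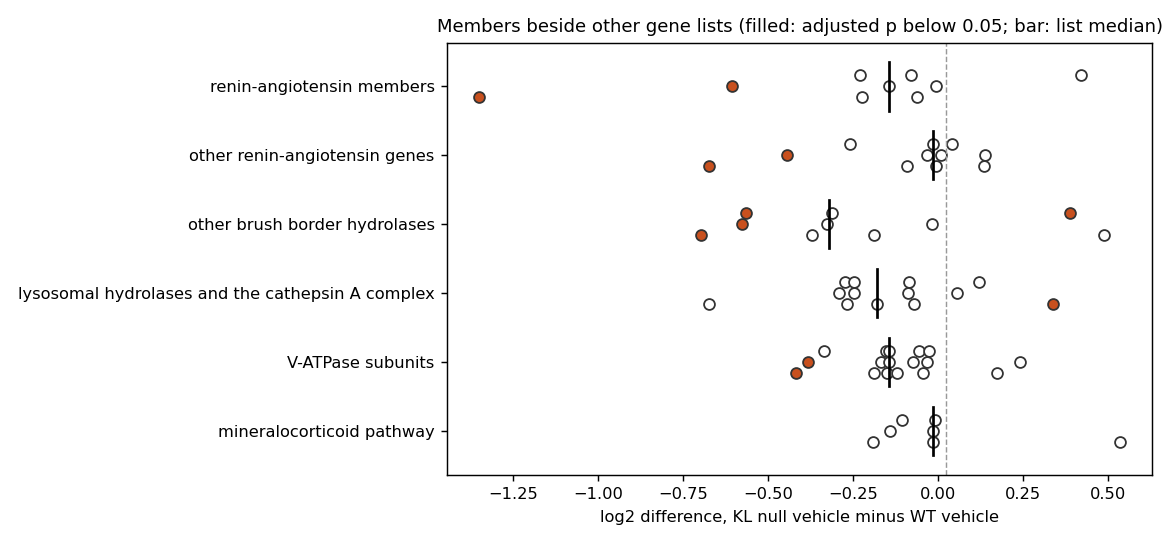
Log2 difference between KL null and WT vehicle (horizontal axis) for the 9 genes and for 5 further lists, 1 point per gene, filled where limma's adjusted p was below 0.05, with a bar at each list's median and a dashed line at the median of all genes (0.02). Ace lies farthest to the left, at -1.35, and the brush border hydrolases have the lowest list median, -0.32.

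Markers of some cell types also differed between KL null and WT vehicle, where 4.44% of all genes were lower and 3.58% higher. Of 6 markers of the late proximal tubule, 5 were lower in KL null and 1 higher, led by Slc22a7, an organic anion transporter (24.3-fold lower, limma adjusted p = 2.78e-06), and against it Slc7a13, an amino acid transporter (11.5-fold higher, adjusted p = 0.000506). The array means of these 6 ran from 9.76 to 10.01 in WT vehicle, 9.58 to 9.96 in WT FGF23 and 8.99 to 9.49 in KL null. Of 7 early proximal tubule markers, 3 were lower (array means 11.93 to 12.14 in WT vehicle, 11.92 to 11.95 in WT FGF23 and 11.74 to 11.89 in KL null). Of 8 immune cell markers, 3 were higher and 1 lower (6.77 to 7.35, 6.55 to 7.21 and 7.22 to 7.79). No smooth muscle and mesangial marker of 10, endothelial marker of 9 or intercalated cell marker of 6 was called between KL null and WT vehicle, while 1 of 4 podocyte markers and 1 of 7 distal tubule markers were lower. Against WT FGF23, 5 late proximal tubule markers were lower and 1 higher, 1 early proximal tubule marker was lower and 3 immune cell markers were higher. Of all genes, 5.25% were lower in that comparison and 6.72% higher. There 4 of 9 endothelial markers were lower (Cdh5 -0.38, Kdr -0.35, Ehd3 -0.37 and Plvap -0.32). Higher there were the smooth muscle marker Acta2 (0.47), the intercalated cell marker Atp6v0d2 (0.45) and the distal tubule marker Calb1 (0.55). None of 8 adrenal markers was called in either comparison, with array means of 4.64 to 4.99 in all groups, and 2 of 5 liver markers, Alb and Ttr, were lower than in WT vehicle. The part of these shifts in the differences of Ace and Anpep was not tested, and in whole kidney RNA fewer cells of a type and less RNA per cell cannot be told apart.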

How the data were processed

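Kidney RNA from 12 mouse samples was read on Affymetrix whole-transcript arrays after biotin labelling, per the labels' protocols. The log2 values per probe set were deposited by the authors, made by RMA normalization, with Partek 6.2 as the software, per the submitters' processing notes. The log base was inferred from the range of the values (2.07 to 14.26). Fold changes of dim probe sets are understated by RMA. Background and probe-level settings, genome build and annotation version are not given in the sources used here, and no probe set was tested against its background.

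Of 28853 probe sets, 21789 had 1 gene symbol in the platform annotation, 1621 several and 5443 none, and only the first kind was used. Entrez identifiers of 21698 matched RefSeq (GRCm38.p6), and 0 symbols were updated. The probe set of highest mean stood for each of 19938 genes. Group means of all 12 arrays were fitted with lmFit and eBayes (limma 3.58.1, R 4.3.3; 9 residual degrees of freedom), two-sided, tested on simulated data first. The depth of an array is not defined, and 4 arrays a group limit the precision. No 2 arrays were duplicates (highest r 0.996). Deviations of same-numbered arrays correlated over 0.1 in all 4 pairs between WT FGF23 and KL null (r 0.143 to 0.259). Arrays of different number did so there too, replicates 1 and 2 with each other (r from 0.112) and 3 and 4 with each other (r from 0.152). Every pair that joined 1 or 2 with 3 or 4 correlated negatively (r -0.219 to -0.056). In both groups replicates 1 and 2 had the lowest array spread (2.166 and 2.167, and 2.195 and 2.217). The labels give no batch, and the part of this division in the correlations within groups was not tested. WT FGF23 replicate 2 had r 0.185 with KL null replicate 1 and 0.143 with KL null replicate 2. The data thus do not show pairing by number. Between WT vehicle and either group only some same-numbered pairs correlated over 0.1 (r -0.216 to 0.191). Correlations within groups were planned as a description, and their p-values (100000 permutations) and the comparison of peptidases were added after the data were seen.

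Genes were named by rule: all 9 members, Kl, in each list every called gene (or, with none, the 2 of smallest p), and the 3 genes most like each called member. The members and all lists were chosen with earlier results of these data known. Markers are named where they lead a list. Alternatives were further quantile normalization, median centring, array spread as a covariate, a replicate block, only the groups compared, robust and unmoderated fits, array weights, other filters and probe set rules, and each array left out.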

Additional observations from a re-analysis of the deposited data

Results flagged for a closer look

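In 8 of 102 groups of 4 arrays examined, 1 array stood apart from the other 3 by Dixon's criterion at 95%, which chance alone gives in about 1 group in 20. Among the 9 genes these were Enpep in WT vehicle replicate 1 (10.66, the others 10.78 to 10.80) and Atp6ap2 in KL null replicate 1 (9.73, the others 9.89 to 9.92). KL null replicate 1 stood apart for 3 more genes: Folh1 (11.16, the others 11.56 to 11.64), Xpnpep2 (8.58, the others 8.10 to 8.16) and Lamp2, a lysosomal membrane protein (11.95, the others 12.01 to 12.02). The remaining ones were Naaladl1 in WT vehicle replicate 4 (4.25, the others 4.62 to 4.69), Atp6v0b in WT vehicle replicate 2 (10.88, the others 11.05 to 11.08) and Agtr2 in WT FGF23 replicate 2 (5.03, the others 4.54 to 4.61).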

How the results depend on the processing

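Ace and Anpep kept direction and call in both KL null comparisons under all 24 alternatives, and none called a member after FGF23. Agt in KL null against WT vehicle passed with quantile normalization (0.47, adjusted p = 0.0463), the spread covariate (0.49, 0.0318) and without KL null replicate 1 (0.51), and against WT FGF23 with the dimmer genes left out (0.41, 0.0479), where fewer genes are tested. Its difference ran from 0.32 to 0.51 and from 0.32 to 0.54 as single arrays were left out. Atp6ap2 in KL null against WT FGF23 lost its call with the spread covariate (0.24, 0.0656), with only both groups fitted (0.30, 0.0545, fewer samples) and without WT FGF23 replicates 1 and 2 (0.24, 0.208), and ran from 0.26 to 0.35 with single arrays left out. Uncalled differences that turned sign were Enpep between KL null and WT vehicle (0.12 with quantile normalization, -0.071 to 0.059 with single arrays left out). After FGF23 they were Mas1 (-0.004 with quantile normalization), Agt (-0.043 with centring, -0.12 to 0.085 without single arrays), and with the spread covariate Ace (0.093), Agtr1a (0.036) and Anpep (0.02). Without WT FGF23 replicates 1 and 2 these were 0.058, 0.065 and 0.035, and Ctsa in KL null against WT FGF23 was 0.053. Without single arrays Agtr1a after FGF23 ran from -0.148 to 0.025 and Ctsa in KL null against WT FGF23 from -0.114 to 0.006. Over all genes, KL null against WT vehicle gave 1598 calls, 2852 with array weights and 828 (without WT vehicle replicate 3) to 1728 with 1 array left out, and centring moved the split from 713 higher and 885 lower to 453 and 1369. FGF23 against vehicle gave 17 calls, and 9 with quantile normalization, 5 with centring, 11 with the spread covariate, 6 with the replicate block, 7 with only both groups, 2 unmoderated, 5 with all probe sets, 8 without FGF23 replicates 1 and 2 and 4 to 14 with 1 array left out. At an unadjusted p below 0.05, 3063 genes passed there. KL null against WT FGF23 gave 2386 calls, 944 without FGF23 replicates 1 and 2 and 1218 (without KL null replicate 3) to 2794 with 1 array left out. The labels number replicates alike in all groups. The deviations of same-numbered arrays did not correlate throughout between WT vehicle and either other group. Between WT FGF23 and KL null they did, but so did replicates 1 and 2 with each other, and 3 and 4 with each other. Whether same-numbered samples share more than a number was not settled by these correlations. The replicate block gave 1548 calls in KL null against WT vehicle and 2396 in KL null against WT FGF23, and changed no call of the 9 genes. Of 20 calls of genes in the other lists, 4 held in all alternatives and all 20 kept their direction. The cause of these changes was not tested otherwise. Array signal over background was not measured, which limits Mas1 most.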
